A study of Mus musculus with 9 samples.

Results

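Apolipoproteins are the proteins that coat plasma lipoproteins, and the liver makes most of them. The 10 genes described here, Apoa1, Apoa2, Apoa4, Apoa5, Apob, Apoc1, Apoc2, Apoc3, Apoe and Apom, were taken by gene symbol from a table of 16755 genes, and all 10 were found. The table gives the mean of normalized read counts, called the level below, in 3 groups of 3 C57BL/6 mice each. Scd2f/f TAL and Scd2f/f;CC TAL are tumor-adjacent liver of mice that received diethyl nitrosamine (DEN), a liver carcinogen (10 mg/kg, when 2 weeks old), and Western alcohol diet (WAD), which combines fat, cholesterol and alcohol, from the age of 6 weeks for 4 months by the labels, whereas the study's methods give a longer time. Control liver is from Scd2f/f mice whose labels give the treatment as untreated, although the protocol text of these samples repeats that of the treated ones. All mice carry the floxed allele of Scd2, a stearoyl-CoA desaturase that makes monounsaturated fatty acids, and the Scd2f/f;CC mice also carry Col1a1-Cre. The Col1a1 promoter drives this Cre in hepatic stellate cells (HSC) and other collagen-producing cells, so the design does not target Scd2 in hepatocytes. The RNA came from whole tissue, and Scd2 in hepatocytes was not measured. The labels name the treated tissue only as liver, and the study calls it TAL in its results but NTL in its methods for sequencing. The level of Scd2 was 2.46 in control liver, 6.47 in Scd2f/f TAL and 1.87 in TAL of Scd2f/f;CC mice, a ratio of 0.289 between the genotypes. Only group means were analysed, so a level has no spread, depth is unknown, and no difference between groups was tested. A gene is called higher or lower below when its ratio of levels passes 1.5-fold, and the counts of the 10 genes are set beside the share of all genes that do so.

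Lipoproteins carry triglyceride and cholesterol through blood. Hepatocytes load triglyceride onto apolipoprotein B to form very low density lipoprotein (VLDL), lipoprotein lipase then unloads it in the periphery, and remnants return to hepatocyte receptors through apolipoprotein E. Apolipoprotein A1 builds high density lipoprotein (HDL), which takes up cholesterol from cells through ABC transporters. In mouse liver, Apoa4 is known as a gene whose mRNA follows hepatic triglyceride content and the transcription factor CREB3L3.

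The genes fall into 2 clusters and 3 single loci of the mm10 genome. On chromosome 9, Apoa1 lies from 46228580 to 46230466 (+ strand), Apoc3 from 46232933 to 46235636 (− strand), Apoa4 from 46240696 to 46243459 (+ strand) and Apoa5 from 46268633 to 46271919 (+ strand). On chromosome 7 and the − strand, Apoc2 lies from 19671579 to 19677941, Apoc1 from 19689481 to 19692660 and Apoe from 19696109 to 19699188. Apoa2 lies on chromosome 1 from 171225054 to 171226379 (+ strand), Apob on chromosome 12 from 7977648 to 8016835 (+ strand) and Apom on chromosome 17 from 35128997 to 35132050 (− strand).

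The sequences before the start sites of Apoa4, Apoa1, Apoe and Apoc2 are shown because these 4 genes were the ones past 1.5-fold between Scd2f/f TAL and control liver. They are the parts free of protein-coding exons within the 250 bases before the RefSeq start (GRCm38.p6), 5′ to 3′ on the gene's strand, at chr9:46240594-46240695 for Apoa4, chr9:46228380-46228579 for Apoa1, chr7:19699189-19699438 for Apoe and chr7:19677942-19678082 for Apoc2. Capitals mark a match to AGTTCA in Apoa4, to GGGTCA in Apoe and to AGGTCA in Apoc2, single repeats of the elements that nuclear receptors such as HNF4A and PPARA bind.
Apoa4: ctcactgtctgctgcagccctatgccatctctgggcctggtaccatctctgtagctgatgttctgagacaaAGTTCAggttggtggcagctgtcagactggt
Apoa1: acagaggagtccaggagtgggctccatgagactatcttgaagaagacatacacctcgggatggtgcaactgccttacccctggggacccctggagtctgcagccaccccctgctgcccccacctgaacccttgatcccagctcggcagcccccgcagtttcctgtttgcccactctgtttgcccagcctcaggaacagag
Apoe: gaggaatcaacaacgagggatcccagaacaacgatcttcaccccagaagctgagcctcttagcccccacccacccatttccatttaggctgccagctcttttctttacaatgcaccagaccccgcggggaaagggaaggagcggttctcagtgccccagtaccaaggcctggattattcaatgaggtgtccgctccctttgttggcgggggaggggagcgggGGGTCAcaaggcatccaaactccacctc
Apoc2: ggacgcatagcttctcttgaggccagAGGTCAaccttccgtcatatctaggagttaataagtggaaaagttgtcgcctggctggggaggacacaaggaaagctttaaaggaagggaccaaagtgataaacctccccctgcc

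RefSeq promoters were matched for 8 of the 10 genes, all but Apoc1 and Apoc3. Over the full 250 bases and both strands, AGTTCA was found in Apoa4 and Apoa1, AGGTCA in Apoc2, and GGGTCA in Apoe, Apoa5 and Apom. A tandem element, GNTCA repeated after any 2 bases, was found in Apoa1 alone, as TGATCCTTGAAC on the − strand from 49 to 38 bases before the start, where it overlaps the AGTTCA match, and this stretch lies past the part printed. By the gene coordinates above, Apoa1 begins 50 bases and Apom 249 bases before the RefSeq start used. The matches of these genes therefore lie inside the gene as given there. TATAAA was found in Apoa2, Apoa5 and Apob. Among 32841 promoters of the same length, 11.8% hold AGTTCA, 14.0% AGGTCA, 11.6% GGGTCA, 1.01% the tandem and 12.4% TATAAA. These are matches of letters, and no binding was measured.

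Per kilobase of transcript, the scale on which genes can be set side by side, Apoa1 had the highest level of the 10 in control liver (4570), followed by Apoe (3878), Apoc1 (3440) and Apoa2 (2201). In Scd2f/f TAL the order was Apoe (7081), Apoc1 (3665), Apoa2 (2973) and Apoa1 (2792), whereas TAL of Scd2f/f;CC mice had Apoe (6634), Apoc1 (4229), Apoa1 (3556) and Apoa2 (3224). Apoa1 therefore held 28.7% of the summed level per kilobase of the 10 genes in control liver, 15.0% in Scd2f/f TAL and 18.1% in TAL of Scd2f/f;CC mice, while Apoe held 24.3%, 38.1% and 33.7%. Apoc3 and Apob lay in the middle in all groups, with 892 and 594 per kilobase in control liver. Apoa5, Apoa4, Apoc2 and Apom were the lowest in each group, and Apom ended the order in all of them. Among 10812 protein-coding genes ranked per kilobase, Apoa4 stood at 369 in control liver, 120 in Scd2f/f TAL and 314 in TAL of Scd2f/f;CC mice. Since levels have no spread, whether neighbours in these orders differ could not be tested.

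**Figure D1:**
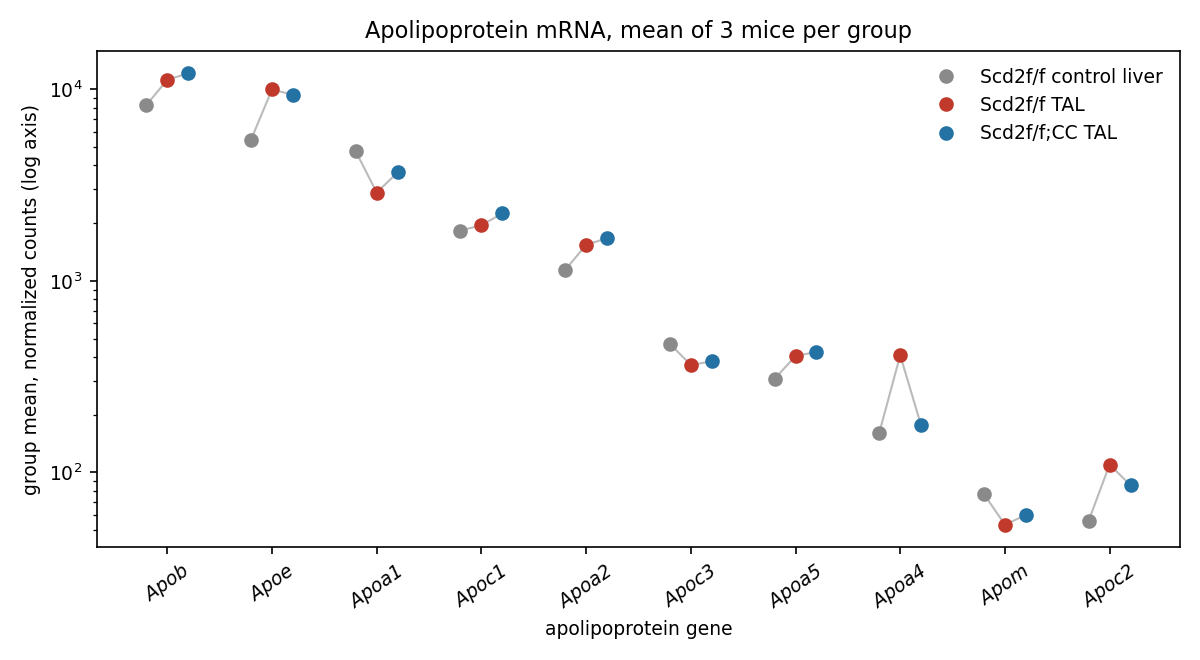
Level of each apolipoprotein mRNA in control liver (gray), Scd2f/f TAL (red) and Scd2f/f;CC TAL (blue). Levels are means of normalized counts of 3 mice on a log axis, not divided by length. Genes are ordered by their level in control liver, and lines join the groups of a gene. Apoa4 stands at 161, 409 and 176, its red point more than 1.5-fold above both others, and Apoa1 (4730, 2890 and 3680) has its red point below both.

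Compared to control liver, DEN and WAD went with higher Apoa4, Apoc2 and Apoe and lower Apoa1 in Scd2f/f TAL. The 3 genes called higher of 10 stand beside 12.8% of the 11784 genes whose mean was 1 or more, and the 1 called lower beside 8.59%. The other 6 were within 1.5-fold. The median log2 ratio of the 10 genes was 0.41, and that of all genes was 0.028.

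Of the HDL proteins, Apoa1 was called lower, and Apoa2 and Apom were within 1.5-fold. The level of Apoa1, the main protein of HDL and the activator of the cholesterol-esterifying enzyme LCAT, was 4730 in control liver and 2890 in Scd2f/f TAL, a ratio of 0.611. Apoa2, the second most abundant HDL protein, was at 1140 and 1540, a ratio of 1.35. Apom, which carries sphingosine phosphate on HDL, was at 77.1 and 53.4, a ratio of 0.693. The quotient of Apoa1 to Apoa2 levels, which does not depend on scaling between groups, was 4.15 in control liver, 1.88 in Scd2f/f TAL and 2.20 in TAL of Scd2f/f;CC mice.

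Apoa4, which associates with chylomicrons and HDL, had the largest ratio of the 10 genes, with a level of 161 in control liver and 409 in Scd2f/f TAL (2.54-fold, log2 ratio 1.35). This ratio was at the 96.1 percentile of all genes whose mean was 1 or more. Apob, the protein on which VLDL is built, was at 8270 and 11200, a ratio of 1.35. Apoe, the ligand that remnants present to hepatocyte receptors, was at 5460 and 9970, a ratio of 1.83. The rank of Apoe per kilobase among protein-coding genes was 8 in control liver and 3 in both TAL groups.

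Of the genes that act on lipoprotein lipase or remnant uptake, Apoc2 was called higher and Apoc3, Apoa5 and Apoc1 were within 1.5-fold. Apoc2, the cofactor of the lipase, was at 56 in control liver and 110 in Scd2f/f TAL, a ratio of 1.96. Apoc3, which inhibits the lipase and remnant uptake, was at 469 and 364, a ratio of 0.776, so the quotient of Apoc2 to Apoc3 was 0.119 and 0.302. Apoa5, which promotes lipase action, was at 308 and 405, a ratio of 1.31. Apoc1, which hinders receptor uptake of remnants, was at 1830 and 1950, a ratio of 1.07.

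Between the genotypes after DEN and WAD, Apoa4 was the 1 gene of the 10 past 1.5-fold. Its level was 176 with Col1a1-Cre and 409 without it, a ratio of 0.430 (log2 ratio -1.22), at the 0.866 percentile of all genes whose mean was 1 or more. The Scd2f/f TAL mean enters both this ratio and the one against control liver, so both carry any error of that mean. Of the 10 genes, 0 were called higher, beside 2.35% of all genes, and 1 was lower, beside 4.87%. Among the 655 genes whose mean was 100 or more, a range that holds 8 of the 10 apolipoproteins, 1.07% were lower by the same fold. These 7 genes included Apoa4, Cyp4a12a (a fatty acid hydroxylase), Gstm1 (a glutathione transferase), Steap4 (a metalloreductase), CT010467.1 and Gm37194, named because they share the count with Apoa4.

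The other 9 apolipoproteins had ratios between 0.779 and 1.27, with a median log2 ratio of 0.11. Apoa1 was at 2890 in Scd2f/f mice and 3680 in Scd2f/f;CC mice, the highest ratio of the 10 (1.27). Apoc1 was at 1950 and 2250 (1.15), Apom at 53.4 and 60 (1.12), and Apoa2 at 1540 and 1670 (1.08). Apob was at 11200 and 12100 (1.08), Apoa5 at 405 and 426 (1.05) and Apoc3 at 364 and 380 (1.04). Apoe was at 9970 and 9340, a ratio of 0.937, and Apoc2 at 110 and 85.7, a ratio of 0.779.

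Within a group, Apoa4 can be set against its chromosome 9 neighbors without regard to scaling. The quotient of Apoa4 to Apoa1 was 0.0340 in control liver, 0.142 in Scd2f/f TAL and 0.0478 in TAL of Scd2f/f;CC mice. Against Apoc3 it was 0.343, 1.12 and 0.463, and against Apoa5 it was 0.523, 1.01 and 0.413. In each case the quotient in Scd2f/f TAL stood above both other groups.

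Set against control liver, Scd2f/f;CC TAL had 2 of the 10 genes called higher, Apoe (1.71) and Apoc2 (1.53), beside 10.9% of all genes, and 0 called lower, beside 7.7%. Apoa4 was at 161 and 176, a ratio of 1.09. Apob and Apoa2 each had a ratio of 1.46, Apoa5 1.38 and Apoc1 1.23, while Apoc3 had 0.810 and Apoa1 and Apom 0.778. The median log2 ratio of the 10 genes was 0.38, beside 0.043 for all genes.

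**Figure D2:**
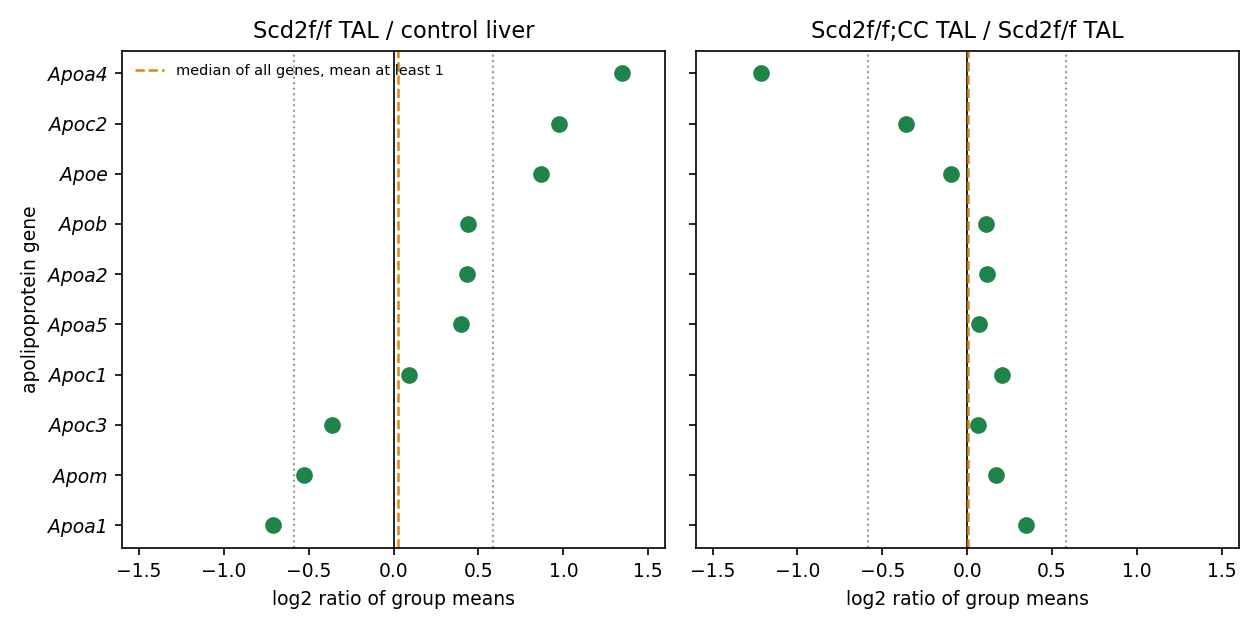
Log2 ratio of group means for each apolipoprotein in Scd2f/f TAL against control liver (left) and TAL of Scd2f/f;CC mice against that of Scd2f/f mice (right), with dotted lines at 1.5-fold and a dashed line at the median of all genes whose mean was 1 or more. Apoa4 lies at 1.35 on the left and -1.22 on the right, while on the right the other 9 lie inside the dotted lines.

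In the chromosome 9 cluster the 4 genes did not go together. The ratios of Apoa1 and Apoc3 between Scd2f/f TAL and control liver were below 1 (0.611 and 0.776), while Apoa5 (1.31) and Apoa4 (2.54) were above 1. Of 5 other genes whose mean was 1 or more within 100 kb, 1 passed 1.5-fold, Gm10680, an antisense gene that overlaps the last 839 bases of Apoa4. Gm10680 was higher against control liver, beside 12.8% of all genes, and lower between the genotypes, beside 4.87%. Its levels were 10.5, 17 and 5.96 in control liver, Scd2f/f TAL and TAL of Scd2f/f;CC mice. The library kit is not stated to keep strand, so reads of Gm10680 and of AC116503.1, which overlaps Apoa4 by 1337 bases, cannot be told apart from reads of Apoa4. With both added, Apoa4 had a ratio of 2.48 against control liver and 0.427 between the genotypes. The flanking genes outside, Sik3 (26.7, 24.7 and 22.9), Zpr1 (17, 12.5 and 12.6) and Bud13 (2.44, 2.2 and 1.95), were within 1.5-fold in both comparisons. Apoa5 is overlapped by the antisense gene AC164105.4 (26.5, 31 and 31.4).

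In the chromosome 7 cluster, Apoe and Apoc2 were called higher in Scd2f/f TAL than in control liver and Apoc1, which lies between them, was at a ratio of 1.07. Apoc4, a minor VLDL protein next to Apoc2, was at 436, 302 and 340 in control liver, Scd2f/f TAL and TAL of Scd2f/f;CC mice, with ratios of 0.693 and 1.13. Gm44805, a read-through gene, spans Apoc4 and Apoc2 on their strand and was at 13.9, 25.2 and 21.2, so the split of reads between it and Apoc2 is uncertain. The sum of Apoc2 and Gm44805 had a ratio of 1.93 against control liver, and the sum with Apoc4 added one of 0.864. Of 10 other genes whose mean was 1 or more within 100 kb, 2 were higher against control liver, beside 12.8% of all genes. They were Gm44805, which shares its bases with Apoc2, and Relb, an NF-kB subunit (0.526, 2.32 and 1.32). Between the genotypes 2 were lower, Relb (0.569) and Bcam, a laminin receptor (0.6), beside 4.87% of all genes. Relb reached a mean of 1 only through the TAL groups, so its calls follow in part from that limit.

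**Figure D3:**
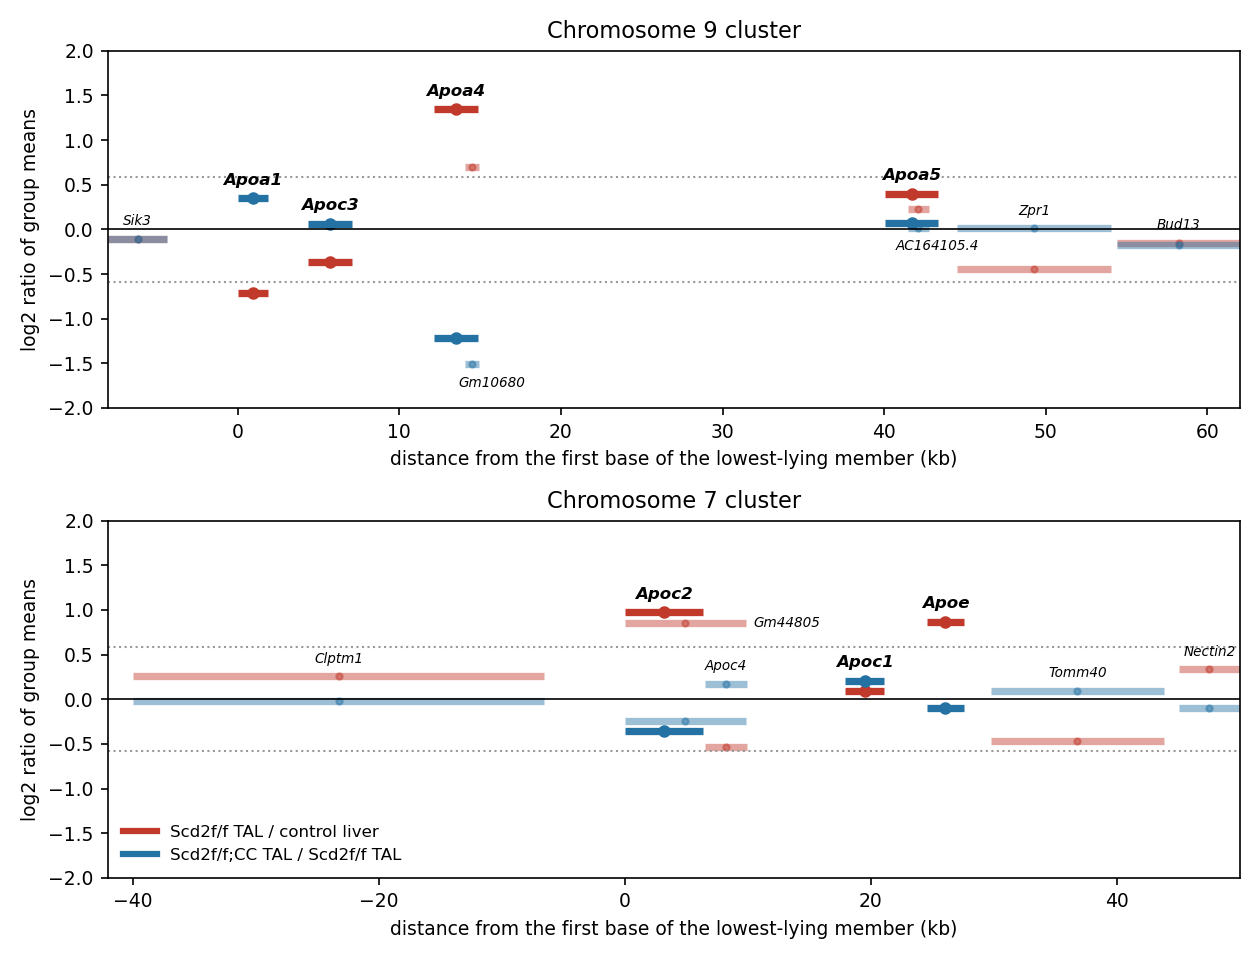
Log2 ratio of group means along both apolipoprotein clusters, for genes whose mean was 1 or more. Distance in kilobases is from the lowest coordinate of Apoa1 (top) or Apoc2 (bottom). Only genes near the clusters are drawn, bars span each gene, full color marks the apolipoproteins described and pale color their neighbors, red is Scd2f/f TAL against control liver, blue is TAL of Scd2f/f;CC mice against that of Scd2f/f mice, and dotted lines mark 1.5-fold. Among the bars drawn, Apoa4 has the highest red one (1.35) and the antisense gene Gm10680 below it the lowest blue one, while Relb, called higher against control liver, lies outside the stretch drawn.

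Other proteins carried on lipoproteins included the acute phase serum amyloids. Beside the count of each list that follows, of pathway genes or of markers, stand the same shares of all genes, 12.8% higher and 8.59% lower in Scd2f/f TAL than in control liver, and 2.35% higher and 4.87% lower between the genotypes. Of 15 such genes whose mean was 1 or more, 5 were higher and 0 lower in Scd2f/f TAL than in control liver, with a median log2 ratio of 0.31. Saa2 was at 8.95, 56.4 and 33.5, and Saa1 at 47, 112 and 77.6 in control liver, Scd2f/f TAL and TAL of Scd2f/f;CC mice. Between the genotypes 0 were higher and 1, Saa2 (0.594), was lower, with a median of 0.019. The interferon-inducible Apol9a was at 20.8, 47.3 and 36.6.

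Of 20 genes that assemble and secrete VLDL, 1 was higher and 1 lower against control liver, and 0 were higher and 1 lower between the genotypes, with medians of 0.049 and 0.017. Mttp, which transfers triglyceride to apolipoprotein B, was at 198, 233 and 251 in control liver, Scd2f/f TAL and TAL of Scd2f/f;CC mice. Apobec1, the enzyme that edits Apob mRNA to its short form, was at 6.84, 10.8 and 6.99, with ratios of 1.58 and 0.647. Its cofactor A1cf was at 81.9, 118 and 132. Tmem41b, a lipid scramblase of the secretory pathway, was at 17.8, 10.6 and 11.3, and Tm6sf2, which adds lipid to VLDL, at 3.69, 4.5 and 5.62.

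Of 14 lipases, their regulators and transfer enzymes, 3 were higher and 1 lower in Scd2f/f TAL than in control liver (median 0.28), and 0 were higher and 2 lower between the genotypes (median -0.11). Lpl, the lipase that Apoc2 activates, was at 16.3, 83.6 and 66.2, and Lipa, the lysosomal acid lipase, at 83.4, 164 and 144. Angptl8, an inhibitor of lipoprotein lipase, was at 17.7, 21.1 and 13.9, and Lipg, the endothelial lipase, at 11.1, 7.45 and 6.86. Lcat, which Apoa1 activates, was at 102, 111 and 122.

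Of 16 lipoprotein receptors, 6 were higher and 0 lower in Scd2f/f TAL than in control liver (median 0.40), and 0 were higher and 2 lower between the genotypes (median 0.10). Cd36, a fatty acid and oxidized lipoprotein receptor, was at 23.7, 138 and 88.5. Apobr, a macrophage receptor for apolipoprotein B that reached a mean of 1 only through the TAL groups, was at 0.469, 1.7 and 1.24, Sorl1, a sorting receptor, at 1.84, 4.03 and 2.46, and Vldlr, the VLDL receptor, at 4.22, 9.97 and 11.4. Lrp1, a hepatocyte receptor that binds Apoe, was among the 6 called higher (568, 896 and 989).

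Of 9 genes of cholesterol efflux and HDL formation, 3 were higher and 0 lower in Scd2f/f TAL than in control liver (median 0.32). Between the genotypes 2 were higher and 0 lower (median 0.24). The 2 were Abcg5 (28.3, 59.2 and 99) and Abcg8 (32.7, 67.6 and 114), the subunits of the transporter that sends cholesterol into bile. Abcg1, which loads HDL, was at 3.53, 12.7 and 10.1, and Abca1, which lipidates Apoa1, at 214, 261 and 325.

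Of 27 transcription factors known to act on apolipoprotein genes, 3 were higher and 3 lower in Scd2f/f TAL than in control liver (median 0.031), and 2 were higher and 0 lower between the genotypes (median 0.086). Hnf4a, the hepatocyte factor that acts on most of these promoters, was at 271, 229 and 213, and Creb3l3 at 109, 122 and 141. Pparg was at 4.01, 9.28 and 7.17, and Nr1d1, a clock repressor, at 18.9, 43.1 and 43.9. Srebf2, the activator of sterol synthesis, was at 23.4, 11.8 and 11.2, and Foxa3 at 40.6, 21.4 and 22.7. Srebf1, the activator of lipogenesis, was at 60.3, 67.7 and 108, Prox1, a corepressor of HNF4A, at 110, 58.1 and 92, and Nr0b2, the bile acid-induced repressor, at 4.71, 10.4 and 14.7.

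Of 15 target genes of CREB3L3 and PPARA outside the family, 10 were higher and 0 lower in Scd2f/f TAL than in control liver, with a median log2 ratio of 0.69. Between the genotypes 0 were higher and 2 lower, with a median of 0.037. The 2 were Fgf21, a fasting hormone (0.167, 4.19 and 1.53), and Cidec, a lipid droplet protein (8.85, 14.3 and 5.56). The fatty acid hydroxylases Cyp4a14 (32.9, 158 and 137) and Cyp4a10 (54.8, 217 and 236) were within 1.5-fold between the genotypes. Fgf21 reached a mean of 1 only through the TAL groups, above all Scd2f/f TAL, so its 2 calls follow in part from that limit.

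Of 30 other plasma proteins of hepatocytes, 1 was higher and 2 lower in Scd2f/f TAL than in control liver (median 0.075), and 1 was higher and 0 lower between the genotypes (median 0.16). Alb was at 21300, 20900 and 22700. The complement protein C3 was at 3050, 4770 and 4220, Mug1, a protease inhibitor, at 2610, 3510 and 4590, Serpina3k at 7660, 4350 and 5630, and Serpina1e at 3990, 784 and 1590. The Serpina1 genes are near-identical copies, so the split of reads between them is uncertain.

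**Figure D4:**
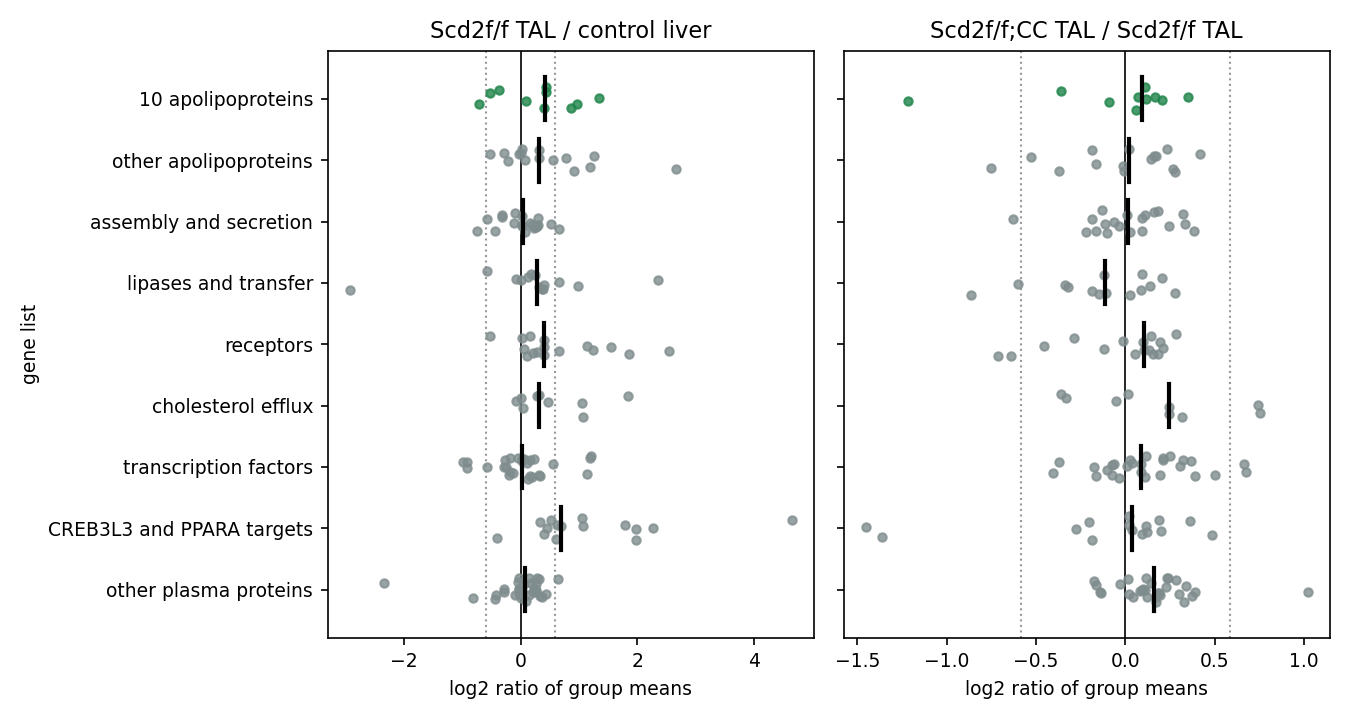
Log2 ratio of group means of each gene whose mean was 1 or more, by list, in Scd2f/f TAL against control liver (left) and TAL of Scd2f/f;CC mice against that of Scd2f/f mice (right). Each point is 1 gene (green for the 10 apolipoproteins), black bars are list medians and dotted lines mark 1.5-fold, and the scales of the panels differ. The median of the CREB3L3 and PPARA targets is 0.69 on the left and 0.037 on the right, where the apolipoprotein farthest from 0 is Apoa4 at -1.22.

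The genes whose pair of ratios lay nearest to that of Apoa4, among 654 others whose mean was 100 or more, were Gstm1, Aldh3a2, Psap, B2m and Ctsd, by Euclidean distance of the 2 log2 ratios. Gstm1 was the nearest, at a distance of 0.70, with levels of 389, 678 and 398 in control liver, Scd2f/f TAL and TAL of Scd2f/f;CC mice. Aldh3a2, a fatty aldehyde dehydrogenase, was at 150, 432 and 319, and the lysosomal proteins Psap and Ctsd at 135, 306 and 238 and at 105, 176 and 127. B2m, the light chain of MHC class I, was at 411, 715 and 515. Likeness over 3 group means is a description, and the distances of the other 4 ran from 0.80 to 0.96.

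The labelled tissue matched its markers, and markers of other cells differed between the groups. In bulk tissue, fewer cells of a type and less RNA per cell cannot be told apart. All 13 hepatocyte markers were measured, their summed level was 32856 in control liver, 32491 in Scd2f/f TAL and 36706 in TAL of Scd2f/f;CC mice, and Alb was the most abundant. Against control liver, 0 of them were higher and 1, Tat, was lower. Between the genotypes 2 were higher, Tat (1.69) and G6pc (2.51), enzymes of tyrosine breakdown and glucose release, and 0 were lower, with a median log2 ratio of 0.19. All 15 macrophage markers were measured, with a summed level of 138, 553 and 427. Of the 14 whose mean was 1 or more, 14 were higher in Scd2f/f TAL than in control liver, and 4 were lower between the genotypes. One of them, Gpnmb (0.0937, 8.98 and 0.638), reached a mean of 1 only through Scd2f/f TAL, and so had to differ. The most abundant, Cd5l, was at 22.9, 114 and 99. Macrophages are known to express Apoe, Apoc1 and Apoc2 beside hepatocytes, and their part in the levels of these genes was not tested.

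The 14 HSC and fibroblast markers, led by Dcn, had a summed level of 262, 423 and 266 in control liver, Scd2f/f TAL and TAL of Scd2f/f;CC mice. Of 13 whose mean was 1 or more, 6 were higher against control liver and 8 were lower between the genotypes. The summed levels of these markers and of the macrophage markers were, like the level of Apoa4, highest in Scd2f/f TAL, and their part in that result was not tested. Endothelial markers, led by Stab2, summed to 162, 212 and 211, and 5 measured cholangiocyte markers, led by Spp1, to 58.7, 53.1 and 19.1. The 10 T and B cell markers all had a mean under 1 and summed to 2.16, 6.15 and 4.46, and 3 measured neutrophil markers to 0.605, 2.89 and 2.35. Enterocytes are the other main source of Apoa4 and Apob. Of 9 enterocyte markers 3 were measured, Fabp2 at 33.2, 61.6 and 66.3, Cdhr5 at 22.9, 30 and 22.3, and Lgals4 at 1.09, 1.66 and 2.11, and the other 6, among them Vil1 and Cdx2, were not analysed here. Between the genotypes the ratio was 1.08 for Fabp2, 0.743 for Cdhr5, 1.27 for Lgals4 and 0.430 for Apoa4, and the part of enterocytes in the level of Apoa4 was not tested. No measured marker was at 0.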

How the data were processed

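Polyadenylated RNA from the liver of 9 mice was isolated with the PicoPure kit, prepared with TruSeq RNA v2 and sequenced on a NextSeq instrument. The submitters' processing notes name STAR 2.6.1, Partek 6 and mm10. The authors quantified genes by the Partek E/M method on Gencode annotation and normalized to the upper quartile. The signal analysed is the deposited least-squares mean of each group, given to 3 significant digits and not divided by length. The deposited table has 18 columns, and the 8 with the authors' p-values, FDR, ratios and fold changes were not used. The Scd2f/f TAL mean was the same in both of its blocks (0 genes differed), so the 3 groups were compared on 1 scale.

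Ratios, log2 ratios and quotients were computed from the means with no pseudocount. With group means alone no test could be run. Genes past 1.5-fold were counted among 11784 with a mean of at least 1 over the groups. Levels per kilobase used GENCODE M21 transcript lengths, and gene ends are given as the last base, since 91.8% of the table's genes matched by symbol ended 1 base after the GENCODE end. Promoter sequences are from RefSeq (GRCm38.p6). Named are the 10 genes, Scd2, in each list the 2 genes with the largest ratio past 1.5-fold in each direction and comparison, cluster neighbors past it, the most abundant marker of each cell type and the 5 genes nearest to Apoa4. Some items of the analysis are not reported here. Other genes of the lists and flanks were named for their role or place after their values were seen. The members and lists were chosen with earlier results of these data known. The fold step recovered its planted folds when tested on simulated data. The planted folds were far past 1.5-fold and the added noise was small, so calls near 1.5-fold were not tested by it. Alternatives were a 2-fold limit, no minimum or a minimum of 100, a pseudocount of 1 and centring. Software was Python 3.11.15, NumPy 2.4.6, pandas 2.3.3 and Matplotlib 3.10.9.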

Additional observations from a re-analysis of the deposited data

How the results depend on the processing

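No paired analysis was possible because the deposited columns hold group means only, apart from gene descriptions and the authors' comparisons. For the same reason no replicate could be left out. Apoa4 stayed past 1.5-fold in Scd2f/f TAL against control liver and between the genotypes, and past a 2-fold limit, under each alternative run. At 2-fold, 1 of the 10 genes was higher and 0 were lower against control liver, beside 6.4% and 2.89% of all genes, and 0 were higher in Scd2f/f;CC TAL against control liver, beside 4.51%. The median of all genes moved by under 0.1, so centring on it left 29 of 30 calls of the 10 genes over 3 comparisons, but in Scd2f/f;CC TAL against control liver 1 gene in place of 2 was then higher. Centring on the 30 other plasma proteins of hepatocytes, whose medians were 0.075, 0.16 and 0.22 in Scd2f/f TAL against control liver, between the genotypes and in Scd2f/f;CC TAL against control liver, took the median of the 10 genes between the genotypes from 0.092 to -0.065. It also made 2 genes lower against control liver, Apom (log2 ratio -0.60) beside Apoa1, and left 0 higher and a median of 0.17 in Scd2f/f;CC TAL against control liver. The 8 lists hold 15, 20, 14, 16, 9, 27, 15 and 30 genes whose mean was 1 or more. Over these lists at 2-fold, 22 in place of 32 genes were higher against control liver, beside 6.4% of all genes. At the same limit, 2 in place of 7 were lower, beside 2.89%. Between the genotypes, 1 in place of 5 was higher and 2 in place of 8 were lower, beside 0.645% and 1.54%. In Scd2f/f;CC TAL against control liver, 18 in place of 36 were higher and 3 in place of 8 lower, beside 4.51% and 2.55%. These shifts came with the stricter limit or the centring, and what lies behind them was not tested. A pseudocount of 1 changed no call of the 10 genes, nor did adding the overlapping genes to Apoa4 or Apoc2, an alternative chosen after seeing the data. With a minimum mean of 100 in place of 1, 1.07% of genes were lower and 4.58% higher between the genotypes, and against control liver 85 of 655 genes were lower and 61 higher, where at a minimum of 1 more were higher than lower. With no minimum, 5.72% were higher and 9.8% lower between the genotypes.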
